A study of Rattus norvegicus with 9 samples.

Results

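Heat shock and endoplasmic reticulum (ER) chaperones were followed in rat lung fibroblasts at 3 postnatal ages around septation, the step that forms alveoli by subdividing larger air spaces. The members were a list of 10 genes, and a gene counted as measured when at least 1 probe set of the array carried its symbol alone. That held for 8 of the 10, out of 14217 genes with such a probe set. Hspb1, Hsph1, Dnajb1 and Hspd1 work in the cytosol, nucleus or mitochondria, and Hspa5, Hsp90b1, Calr and Pdia4 reside in the ER. Hspa8, the constitutive HSP70 of the cytosol, and Hsp90aa1, the inducible cytosolic HSP90, were represented only by 1 and 2 probe sets that also carried another symbol, so no value is given for either. Where a gene had several probe sets, the brightest over the 9 arrays stood for it.

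Fibroblasts were isolated from pups of postnatal day 2, when the lung is saccular, day 7, while septation was under way, and day 21, when it was over. A sample was the pooled cells of 1 litter, of 5 pups at day 2 and of 4 pups at days 7 and 21, with 3 litters per day and 1 Affymetrix array per sample, 9 in all. The labels give no strain, sex, genotype or treatment. The lung was dispersed with trypsin and collagenase, and cells that stuck to plastic within 45 min in medium with serum were scraped off and frozen, so every sample went through enzymatic digestion and plating before its RNA was extracted. Levels are log2 of the deposited intensity, and a change is the later day minus the earlier one on that scale.

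Molecular chaperones hold newly made or unfolded proteins until they reach their shape. Cytosolic heat shock genes are switched on by the transcription factor HSF1 when unfolded protein builds up, after heat or other stress. ER chaperones serve secreted and membrane proteins, of which fibroblasts make large amounts as collagen, and are raised by the unfolded protein response through the factors ATF6 and XBP1, while another branch acts through ATF4 on amino acid and redox genes.

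Sequence just upstream of the gene starts is shown because it holds the letters that these factors are known to bind. The sequences are from the RefSeq promoter table (build GRCr8), read 5′ to 3′ on the gene's strand, taken from the 250 bases before the start of the gene and trimmed to the matches with up to 10 bases on either side. Capitals mark GAA and TTC (or TTC and GAA) 2 bases apart, the core of a heat shock element, in the first 4, and CCAAT followed after 9 bases by CCACG on either strand, the ER stress element, in the last 3.
Hspb1, chr12:26432393-26432440, minus strand: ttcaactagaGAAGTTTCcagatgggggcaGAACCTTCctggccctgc
Hsph1, chr12:10427253-10427354, plus strand: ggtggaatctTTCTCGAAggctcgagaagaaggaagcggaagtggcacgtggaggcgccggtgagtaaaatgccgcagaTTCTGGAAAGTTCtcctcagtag
Dnajb1, chr19:41431142-41431162, minus strand: gggaggggcgGAAGGTTCtgg
Hspd1, chr9:64084252-64084287, minus strand: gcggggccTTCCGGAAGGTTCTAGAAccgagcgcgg
Hspa5, chr3:38452963-38453001, plus strand: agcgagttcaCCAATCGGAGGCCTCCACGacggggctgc
Hsp90b1, chr7:23012337-23012479, minus strand: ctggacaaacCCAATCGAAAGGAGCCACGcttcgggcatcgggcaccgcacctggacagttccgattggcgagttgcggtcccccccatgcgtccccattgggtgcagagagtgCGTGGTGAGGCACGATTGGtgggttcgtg
Calr, chr19:40213125-40213163, plus strand: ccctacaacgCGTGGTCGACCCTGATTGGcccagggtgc

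All 4 measured cytosolic and mitochondrial members held a heat shock core, with 3 in Hspd1, 3 in Hsph1, 2 in Hspb1 and 1 in Dnajb1, and none of the 4 ER members did. A core was present in 13.5% of 33469 promoters. Hspd1 and Hsph1 also held 3 alternating units in a row, which 0.663% of promoters did. Such a run contains 2 overlapping cores, so the counts are not separate. The ER stress element stood at 2 places in Hsp90b1 and at 1 each in Hspa5 and Calr, and 22 promoters, or 0.0657%, held it in all. Pdia4 held neither motif in this window. The 22 promoters carried 21 gene symbols, among them the ER genes Canx, Creld2, Dnajc3, Derl3, Ero1b and Xbp1. Of the 17 of these genes measured, Calr among them, 3 rose and 6 fell between days 7 and 21. The promoters with the 3-unit element belonged to 182 genes. Of the 47 measured, Hsph1 and Hspd1 among them, 11 rose and 8 fell. Over all genes 13.7% rose and 24.4% fell, and with so few genes nothing is read from these counts. A match describes letters in a window and is not a measured binding site.

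All 8 genes were abundant on the arrays. Hspb1, a small heat shock protein that holds unfolded proteins and binds actin, averaged log2 12.63 over the 9 arrays, above 99.8% of genes measured, where the brightest probe set of each array lay at 13.36 to 13.55. Hspa5, the ER chaperone BiP, averaged 12.24. Pdia4, an ER protein disulfide isomerase, was the dimmest at 8.94, above 88.5% of genes. Intensities of different probe sets depend on their probes, so the levels of the 8 genes are not ranked against each other beyond these positions. Over the days, the range of day means was widest in Calr (0.69), Hspb1 (0.67) and Dnajb1 (0.66) and narrowest in Hspa5 (0.17).

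**Figure D1:**
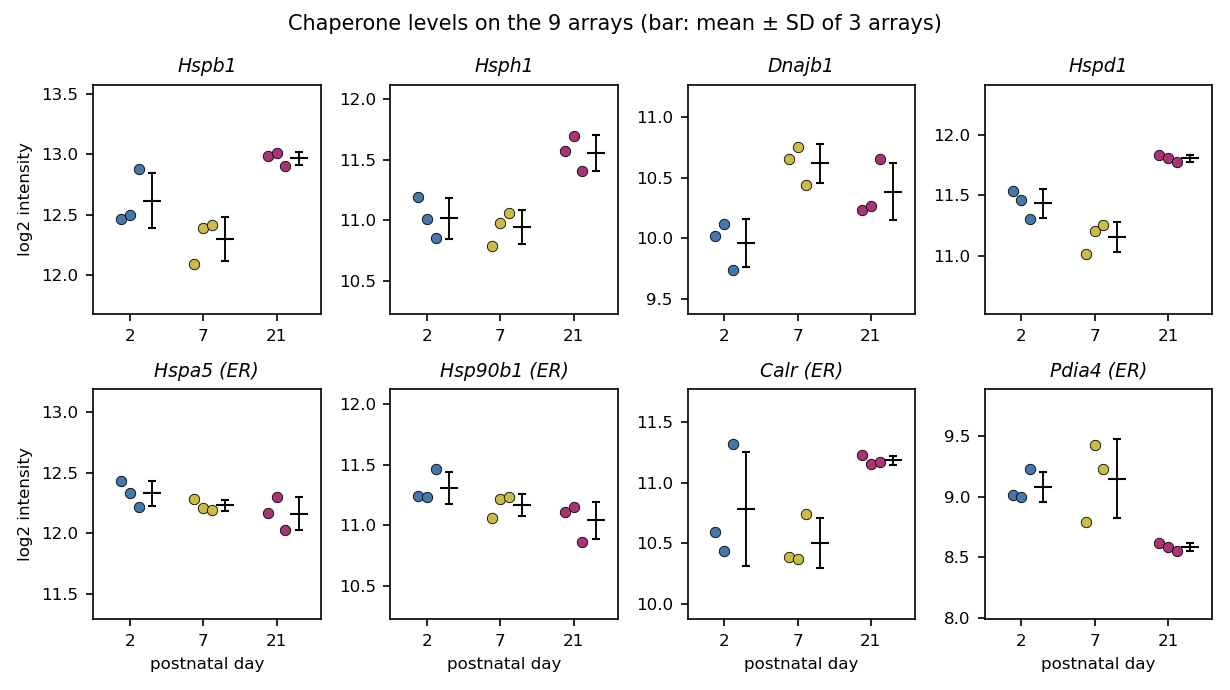
Log2 intensity of the 8 measured chaperone genes (y axes, each spanning 1.9 log2 units) on the 3 arrays of postnatal days 2, 7 and 21 (x axes), with the mean and SD of each day beside the points. Hspb1, Hsph1 and Hspd1 stand highest on all 3 day 21 arrays, Dnajb1 lowest on the day 2 arrays, Pdia4 lowest on the day 21 arrays, and Hspa5 spans 0.41 log2 units over all arrays.

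Day 21 was set against day 7 to show what changed by the end of septation, and most of the chaperone calls were made there. The small heat shock protein Hspb1, the HSP70 exchange factor Hsph1, the mitochondrial chaperonin Hspd1 and the ER lectin chaperone Calr rose, each by about the same factor, and Pdia4 fell. The ER chaperones Hspa5 and Hsp90b1 and the cochaperone Dnajb1 did not pass the test. Thus 4 of 8 members were higher at day 21, where 13.7% of genes were, and 1 of 8 was lower, where 24.4% of genes were. The members and the gene lists below were chosen with earlier results of these data known. Their counts beside the shares over all genes are therefore no test.

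Hspb1 was at log2 12.99, 13.01 and 12.90 on day 21, against 12.09, 12.39 and 12.42 on day 7. The groups did not overlap, and its difference was 0.67 ± 0.16 SE, or 1.59-fold (n = 3 arrays per day, limma adjusted p = 0.00802). Hspd1, the HSP60 chaperonin that folds proteins imported into mitochondria, was at 11.83, 11.80 and 11.78 on day 21, against 11.02, 11.20 and 11.25 on day 7. The day 21 arrays lay within 0.06 of each other and all above day 7, with a change of 0.65 ± 0.14, or 1.57-fold (adjusted p = 0.00398). Hsph1, an HSP110 protein that frees HSP70 of its nucleotide, was at 11.57, 11.70 and 11.40 on day 21, against 10.79, 10.98 and 11.06 on day 7. It was higher on every day 21 array, by 0.61 ± 0.16 or 1.53-fold (adjusted p = 0.0103). These 3 calls held under each of the 17 alternative settings, at adjusted p of 0.000232 to 0.0473.

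Calr, calreticulin, which folds glycoproteins and stores calcium in the ER, was at 11.23, 11.16 and 11.17 on day 21, against 10.39, 10.37 and 10.74 on day 7. The day 21 arrays were tightly grouped and above all day 7 arrays (0.69 ± 0.22, 1.61-fold, limma adjusted p = 0.0311). Without day 2 replicate 3, which enters the spread shared by all days, the adjusted p was 0.0059. Pdia4 was at 8.62, 8.59 and 8.55 on day 21, against 8.79, 9.43 and 9.23 on day 7. It was lower on every day 21 array, with day 7 replicate 1 the nearest (change -0.57 ± 0.18, 1.48-fold lower, adjusted p = 0.0281). The call of Calr was lost without day 21 replicate 1, 2 or 3 (adjusted p = 0.0801, 0.0664 and 0.0684) and without day 7 replicate 1 or 2 (0.0901 and 0.0983). That of Pdia4 was lost without day 21 replicate 1, 2 or 3 (0.0594, 0.0642 and 0.072), day 7 replicate 2 or 3 (0.125 and 0.0764), and when arrays were centred on their medians (0.139) or quantile normalized (0.0612).

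Hspa5 binds nascent chains entering the ER and keeps the sensors of the unfolded protein response silent. It was at 12.16, 12.30 and 12.02 on day 21, against 12.28, 12.21 and 12.19 on day 7, and the groups overlapped. The change was -0.07, with a 95% confidence interval of -0.38 to 0.24 (adjusted p = 0.776). Hsp90b1, the ER form of HSP90, was at 11.11, 11.15 and 10.87 on day 21, against 11.06, 11.21 and 11.23 on day 7. The groups overlapped here too, with a change of -0.13 and an interval of -0.45 to 0.20 (adjusted p = 0.581). A rise as large as that of Hspd1 lies outside both intervals.

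**Figure D2:**
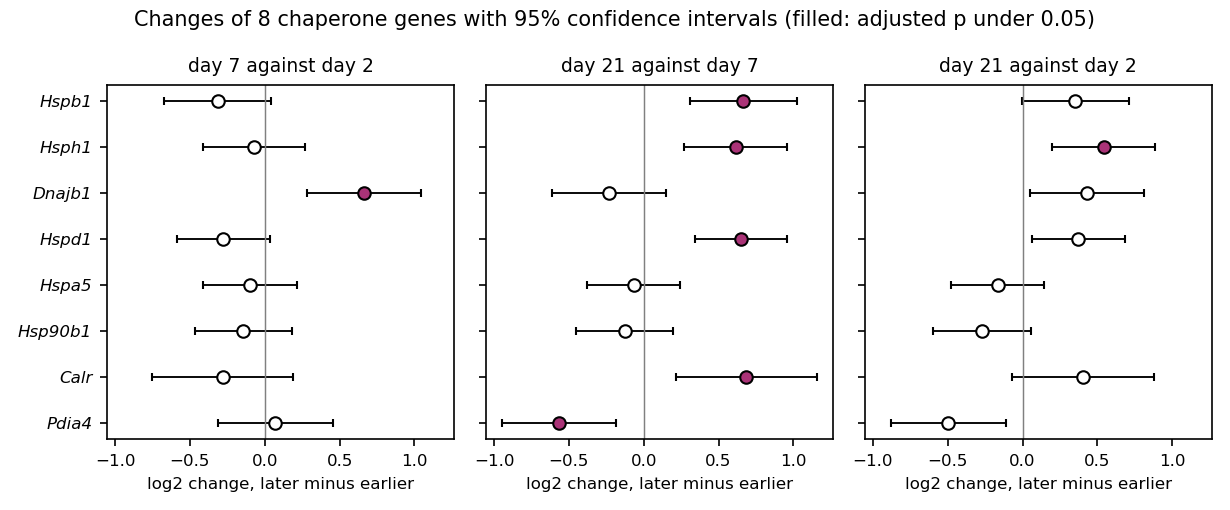
Log2 change (x axes, later minus earlier day) of the 8 measured genes (rows) in each comparison, with 95% confidence intervals from limma. Filled points passed an adjusted p of 0.05: 1 gene between days 7 and 2, 5 genes between days 21 and 7, and 1 gene between days 21 and 2.

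Day 7 was set against day 2 to show what changed while septation got under way. Dnajb1, the HSP40 protein that delivers substrates to HSP70, rose to 10.66, 10.76 and 10.44 on day 7, against 10.02, 10.12 and 9.74 on day 2. The groups did not overlap, and the difference was 0.66 ± 0.17, or 1.58-fold (n = 3 arrays per day, limma adjusted p = 0.0362). It was the 1 member of 8 higher at day 7, where 7.02% of genes were, and no member was lower by limma, where 4.41% of genes were. At an unadjusted p under 0.05 no other member passed.

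The call of Dnajb1 was lost without day 2 replicate 1, 2 or 3 (adjusted p = 0.0691, 0.0606 and 0.127) and without day 7 replicate 1 or 2 (0.103 and 0.13). It was also lost with arrays centred on their medians (0.116), as the mean of its probe sets (0.0636) and with a litter number block (0.0606). Hspb1 was at 12.09, 12.39 and 12.42 on day 7 and at 12.47, 12.50 and 12.88 on day 2, a change of -0.31 ± 0.16 that did not pass (adjusted p = 0.301), although every day 7 array lay below the day 2 arrays. Hspd1 showed the same arrangement, at 11.02 to 11.25 on day 7 and 11.30 to 11.54 on day 2 (-0.28 ± 0.14, adjusted p = 0.291). Calr had its widest spread at day 2, at 10.59 and 10.44 on replicates 1 and 2 and 11.32 on replicate 3, and its change of -0.28 did not pass (adjusted p = 0.524). The other 4 genes had changes of -0.14 to 0.07, at adjusted p of 0.667 to 0.884.

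Over the whole interval, day 21 against day 2, Hsph1 was the 1 member called. Its day 21 arrays, at 11.40 to 11.70, lay above its day 2 arrays, at 10.85 to 11.19 (0.54 ± 0.16, 1.46-fold, limma adjusted p = 0.0318). The call was lost without day 2 replicate 2 or 3 (0.0866 and 0.0954), day 21 replicate 1 or 2 (0.0761 and 0.101), and with arrays centred on their medians (0.0644). Thus 1 of 8 members was higher, where 8.8% of genes were, and 0 of 8 were lower by limma, where 15.3% of genes were. At an unadjusted p under 0.05, Hsph1, Dnajb1 and Hspd1 were higher and Pdia4 was lower. Pdia4 was at 8.55 to 8.62 on day 21 and averaged 9.08 ± 0.13 on day 2 (SD, n = 3), without overlap, and its change of -0.50 ± 0.18 did not pass (adjusted p = 0.0697). This Pdia4 change was called in 5 of the 17 alternatives, at adjusted p down to 0.0431, and the Hspd1 change of 0.37 (adjusted p = 0.0901) was called in 2, with another prior (0.0243) or an offset (0.025). Dnajb1 was called in 1, as the mean of its probe sets (0.00559). Calr differed by 0.40 (adjusted p = 0.219) and, without day 2 replicate 3, by 0.67 (adjusted p = 0.0226). The 3 comparisons share arrays, since each day enters 2 of them, so their results are not independent of each other.

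Hsph1 and Dnajb1 had a second probe set, and for Dnajb1 the 2 probe sets gave different courses. Its second probe set was at 8.83, 8.94 and 9.34 on day 2, 9.27, 9.54 and 9.25 on day 7 and 9.98, 9.77 and 10.43 on day 21. It rose between days 7 and 21, by 0.71 ± 0.20 (adjusted p = 0.0184), where the brightest probe set had a change of -0.23 (adjusted p = 0.365). Between days 2 and 7 it changed by 0.32 (adjusted p = 0.424), where the brightest rose. From day 2 to day 21 it rose by 1.03 ± 0.20, or 2.04-fold (adjusted p = 0.00452). The timing of the Dnajb1 rise therefore depends on the probe set, and day 2 had the lowest mean in both. The second Hsph1 probe set was also highest on the day 21 arrays, at 11.11, 11.08 and 10.88 on day 21, against 9.86, 10.05 and 9.95 on day 7 (1.07 ± 0.15, 2.10-fold, adjusted p = 0.000157). Against day 2 it was 1.87-fold higher at day 21 (0.90 ± 0.15, adjusted p = 0.00146).

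**Figure D3:**
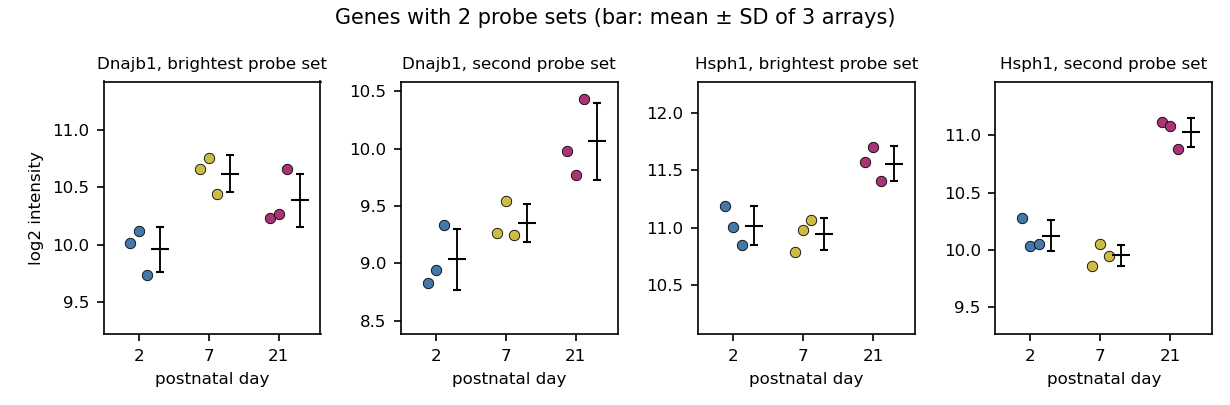
Log2 intensity (y axes, each spanning 2.2 log2 units) of the brightest and the second probe set of Dnajb1 and Hsph1 on the 3 arrays of each postnatal day (x axes), with the mean and SD beside the points. The Dnajb1 probe sets are highest at different days, 10.62 on average at day 7 in the brightest and 10.06 at day 21 in the second, whereas both Hsph1 probe sets are highest at day 21.

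The rest of the heat shock system held calls in both directions. Of 47 other measured heat shock proteins and cochaperones, 7 rose and 6 fell between days 7 and 21, with a median change of 0.12, against -0.01 for all genes. Over all genes 13.7% rose and 24.4% fell, so the rises were near the share over all genes. Hspa2, an HSP70 protein, and Hspb8, a small heat shock protein, were 2.17-fold and 2.16-fold higher at day 21 (1.12 ± 0.21 and 1.11 ± 0.19, limma adjusted p = 0.00148 and 0.000761). Hsbp1, a small protein that binds HSF1, was 3.15-fold lower, at 9.12, 8.75 and 9.16 on day 21, against 10.54, 10.57 and 10.89 on day 7 (adjusted p = 1.64e-05). Trap1, the mitochondrial HSP90, was 2.28-fold lower (-1.19 ± 0.16, adjusted p = 0.000126).

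A further 6 genes of this list were chosen with their values in view, 4 that rose and 2 that did not pass, and they say nothing of the list as a whole. Stip1, which links HSP70 to HSP90, changed by 0.78 (adjusted p = 0.00274), the HSP90 cochaperone Fkbp4 by 0.75 (0.0336), the HSP70 exchange factor Bag3 by 0.66 (0.0035) and the constitutive HSP90 gene Hsp90ab1 by 0.57 (0.0226). Hspa1a, the stress-inducible HSP70, was at a mean of 12.99 on day 21 and 12.84 on day 7, a change of 0.15 that did not pass (adjusted p = 0.468). Both means lay near the top of the arrays, whose brightest probe sets were at 13.36 to 13.55. Whether a heat shock response differed between the days was not tested. Hspe1, the HSP10 partner of Hspd1 in the mitochondrial chaperonin, changed by 0.15 ± 0.16 (adjusted p = 0.537) where Hspd1 rose. The difference between the changes of Hspd1 and Hspe1 was not tested.

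Between days 2 and 7, 1 of the 47 rose and 2 fell, where 7.02% of all genes rose and 4.41% fell. Hsbp1 was 2.07-fold higher at day 7, and Dnajb6, an HSP40 protein, and Fkbp5, a glucocorticoid-induced HSP90 cochaperone, were 2.22-fold and 1.77-fold lower (limma adjusted p = 0.00343, 0.0305 and 0.0314). Between days 2 and 21, 5 rose and 5 fell, where 8.8% of all genes rose and 15.3% fell. Hspa2 was 2.41-fold higher and Dnajb6, Trap1 and Hspa14, an HSP70-like protein of the ribosome, were 3.56-fold, 1.82-fold and 1.82-fold lower. The chaperonin TRiC folds actin and tubulin. The 13 measured subunits of TRiC and of prefoldin held no call between days 2 and 7 by limma. At an unadjusted p under 0.05, 1 was higher and 1 lower. Between days 7 and 21, 5 of the 13 fell, where 24.4% of all genes fell. Among the 5 were Pfdn5 (-0.96 ± 0.16, adjusted p = 0.000741), Pfdn1 (-0.56), Pfdn6 (-0.56) and Cct6a (-0.48). Only 1 call among the 13 was made when arrays were centred on their medians. Between days 2 and 21, Pfdn5 and Pfdn6 fell, by 0.54 and 0.48, and neither scaling alternative called any of the 13.

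Many other ER folding genes fell toward day 21. Of 38 measured, 18 were lower and 3 higher at day 21 than at day 7, with a median change of -0.43, against -0.01 for all genes. Of all genes, 24.4% were lower and 13.7% higher in this comparison. The prolyl isomerase Fkbp9 was at 8.26, 8.50 and 7.94 on day 21, against 10.59, 10.57 and 10.60 on day 7, 5.11-fold lower (-2.35 ± 0.17, limma adjusted p = 1.64e-06). Txndc5, a disulfide isomerase, was at 7.55, 8.08 and 7.88 on day 21, against 9.63, 9.97 and 9.79 on day 7, 3.89-fold lower (adjusted p = 9.64e-06). Both were far outside the spread of either day. Fkbp10, a prolyl isomerase of procollagen, was 3.08-fold lower, and Uggt2, of the glycoprotein folding cycle, 2.54-fold lower.

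Serpinh1, the collagen chaperone HSP47, and Pdia6, a disulfide isomerase, also fell, by 0.84 ± 0.16 and 0.95 on the log2 scale, and Sdf2l1, a partner of Hspa5, rose by 1.14 (limma adjusted p = 0.00146, 0.000201 and 0.00153). The choice of these 3 genes was made with their values in view. Whether the 38 genes and the 4 ER members differ in their change was not tested. Between days 2 and 7, 3 of the 38 were lower at an unadjusted p under 0.05. In that comparison 7.02% of all genes rose and 4.41% fell, and 4 of the 38 rose and 0 fell by limma. The 4 were Txndc5 (0.75 ± 0.18), Fkbp9 (0.64), Fkbp14, another prolyl isomerase (0.63), and Dnajc10, an ER reductase (0.62), at adjusted p of 0.024 to 0.0486, and 0 were called when arrays were centred on their medians. Against day 2, 14 of the 38 were lower at day 21 and 0 higher, also 0 higher at an unadjusted p under 0.05. Over all genes 15.3% were lower and 8.8% higher. Fkbp9, Pdia5, Txndc5 and Fkbp10 had the largest falls, 3.28-fold, 2.57-fold, 2.31-fold and 2.25-fold.

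**Figure D4:**
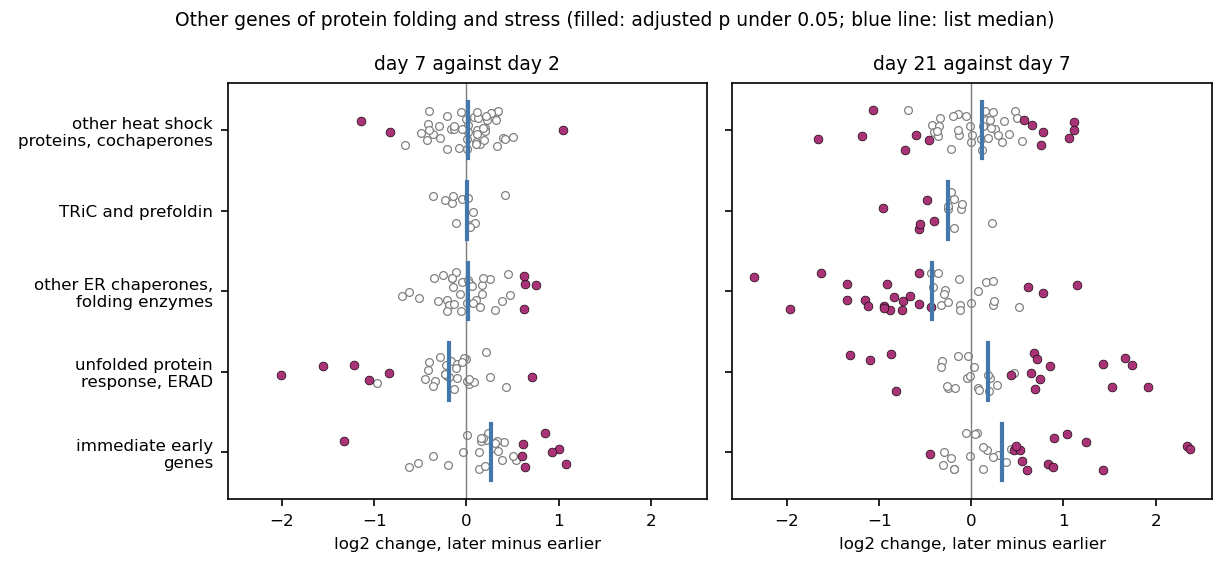
Log2 change (x axes) of each measured gene of 5 lists (rows) for day 7 against day 2 (left) and day 21 against day 7 (right). Filled points passed an adjusted p of 0.05 and blue lines are list medians, which for day 21 against day 7 were 0.12, -0.25, -0.43, 0.18 and 0.33 from top to bottom.

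Genes of the unfolded protein response and of ER-associated degradation held more falls than rises between days 2 and 7 and more rises than falls between days 7 and 21. Of 33 measured, 5 fell and 1 rose in the first interval, where 4.41% of all genes fell and 7.02% rose. In the second, 12 rose and 4 fell, where 13.7% of all genes rose and 24.4% fell. Asns, asparagine synthetase and a target of ATF4, was at 7.31, 7.33 and 7.503 on day 2, 6.36, 6.22 and 5.90 on day 7 and 8.08, 8.09 and 8.07 on day 21. The 3 days did not overlap, and it was 2.33-fold lower at day 7 than at day 2 and 3.78-fold higher at day 21 than at day 7 (limma adjusted p = 0.00139 and 3.99e-06). Chac1, which degrades glutathione, was 4.02-fold lower at day 7 and then 2.87-fold higher at day 21, and Trib3, a pseudokinase, 2.95-fold lower and then 3.17-fold higher. Both are also known targets of ATF4. Ddit4, an inhibitor of mTOR, was 2.09-fold lower at day 7 than at day 2, and Nupr1, a stress-induced nuclear protein, 3.34-fold higher at day 21 than at day 7.

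A further 3 genes, singled out after their values were seen, lie on the arms of the response. Ddit3, the ATF4-induced factor CHOP, rose by 0.74 and Herpud1, of ER-associated degradation, by 0.68 between days 7 and 21 (limma adjusted p = 0.00239 and 0.0088). Xbp1, whose product induces ER chaperones, changed by -0.04 (adjusted p = 0.861). Splicing of Xbp1 and phosphorylation of the sensors were not measured. Against day 2, Creb3l1 and Mbtps2, a membrane-bound factor and the protease that releases such factors, were 2.36-fold and 1.86-fold lower at day 21, Casp12 was 1.73-fold lower and Os9, a lectin of ER-associated degradation, 1.78-fold higher.

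Cell handling can raise heat shock and immediate early genes, so immediate early genes were read on the same arrays. Of 30 measured, 7 rose and 1 fell between days 2 and 7, where 7.02% of all genes rose and 4.41% fell. Between days 7 and 21, 13 rose and 1 fell, where 13.7% of all genes rose and 24.4% fell. Between days 2 and 21, 18 rose and 0 fell, where 8.8% of all genes rose and 15.3% fell. In the last, 0 of the 30 were lower at an unadjusted p under 0.05. The log2 level of the 30 averaged 9.39 to 9.57 at day 2, 9.67 to 9.76 at day 7 and 10.08 to 10.23 at day 21. No array of a later day fell within the range of an earlier one. Fos and the nuclear receptors Nr4a1 and Nr4a3 were 2.01-fold, 2.11-fold and 1.90-fold higher at day 7 than at day 2, and Fosl1 was 2.51-fold lower. Socs3, Fosl1, Gadd45a and Junb were 5.18-fold, 5.07-fold, 2.69-fold and 2.37-fold higher at day 21 than at day 7. Against day 2, Socs3, Junb, Gadd45g and Nr4a3 were 4.52-fold, 2.91-fold, 2.61-fold and 2.56-fold higher at day 21. The part of handling in the rise of Hspb1, Hsph1 and Hspd1 was not tested, and all samples had the same stated protocol.

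Markers of other cell types moved between the same days. Over all genes, 7.02% rose and 4.41% fell between days 2 and 7, and 13.7% rose and 24.4% fell between days 7 and 21. Of 23 measured macrophage markers, 16 fell and 0 rose between days 2 and 7 and 22 rose and 0 fell between days 7 and 21. Their mean level was log2 9.10 to 9.36 on day 2, 7.30 to 8.15 on day 7 and 9.55 to 10.07 on day 21. Only Cd163 had a mean under log2 4.25, where the dimmest 25% of all values lie. Of 26 proliferation genes, 23 fell between days 7 and 21, to means of 5.70 to 5.96 on day 21, against 7.63 to 7.70 on day 7, and of 13 endothelial markers 10 fell. Of 11 mast cell and granulocyte markers 8 rose, to means of 5.90 to 7.55 on day 21, against 4.35 to 4.93 on day 7. In such bulk samples, fewer cells of a type and less of an RNA per cell cannot be told apart.

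Fibroblast markers were bright on every array, and so were macrophage markers on days 2 and 21. The 18 measured fibroblast genes averaged log2 10.18 to 10.42 on day 2, 10.51 to 10.56 on day 7 and 9.91 to 10.33 on day 21, and none lay below 4.25. Of the 18, 3 rose and 6 fell between days 7 and 21, and 3 rose and 5 fell between days 2 and 21. Over all genes 13.7% rose and 24.4% fell in the first comparison, and 8.8% rose and 15.3% fell in the second. The 9 genes of interstitial and type VI collagens, main cargo of the fibroblast ER, averaged 10.54 to 11.20 on day 21 and 10.89 to 11.16 on day 7, with 1 rise and 2 falls. Of 16 lymphocyte and plasma cell markers, 8 lay below 4.25, among them Cd3d, Cd3e, Ms4a1, Cd79b and Mzb1. Of the 16, 4 rose and 0 fell between days 7 and 21 by limma, also 0 lower at an unadjusted p under 0.05. Their mean level was 4.68 to 5.00 on day 21, above the 4.28 to 4.56 on day 7. Muscle and pericyte, epithelial, mesothelial and erythroid lists held 3 rises and 3 falls of 11, 7 and 4 of 19, 2 and 0 of 4, and 0 and 1 of 4 between days 7 and 21. The excess of 3′ over 5′ signal of the hexokinase control, a measure of RNA integrity, was 0.37 to 0.87 on day 2, 0.56 to 0.91 on day 7 and 1.07 to 1.33 on day 21, while those of beta-actin and Gapdh overlapped between days. The part of any of these in the chaperone changes was not tested.

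**Figure D5:**
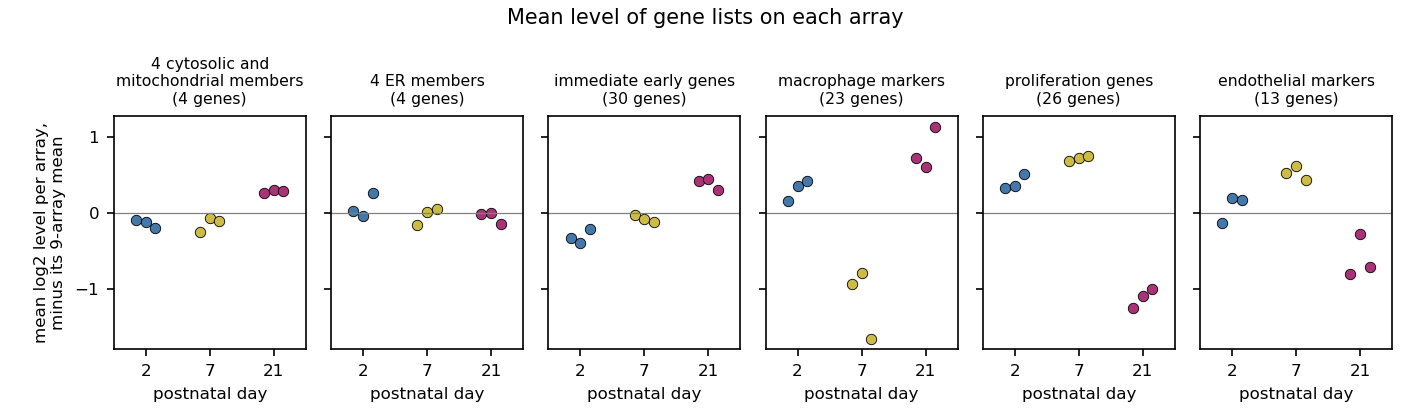
Mean log2 level of 6 gene lists on each array (y axis, centred on the mean of the 9 arrays) by postnatal day (x axes), with 1 point per array. The mean of the cytosolic and mitochondrial members stands highest on the 3 day 21 arrays, as the immediate early genes and macrophage markers do. Dnajb1 alone, by its brightest probe set, had its highest mean on day 7. The mean of the ER members overlaps between days, although Calr was higher and Pdia4 lower at day 21 than at day 7. Proliferation and endothelial genes are lowest on day 21.

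Members of a group were each centred on their own mean and averaged. The 4 cytosolic and mitochondrial genes then stood at -0.14 on day 2, -0.14 on day 7 and 0.28 on day 21. The 4 ER genes stood at 0.08, -0.03 and -0.05. Both averages join members that moved apart. In the first, Dnajb1 changed by 0.66 from day 2 to 7 and by -0.23 from day 7 to 21, by its brightest probe set. Hspb1, Hsph1 and Hspd1 changed by -0.31, -0.07 and -0.28 and then rose by 0.67, 0.61 and 0.65. In the ER average, Calr changed by 0.69 and Pdia4 by -0.57 between days 7 and 21, and Hspa5 and Hsp90b1 by -0.07 and -0.13. Among 6887 other genes whose day means ranged over at least 0.5, those nearest to the first profile, by root mean square difference over the 9 arrays, were Sigirr (0.091), Clec9a (0.094), Cldn7 (0.095), Sgk3 (0.10) and Stard8 (0.10). The members themselves differed from it by 0.12 to 0.35. Sigirr, Clec9a and Cldn7 averaged log2 3.48 to 4.28 over the days, near the 25th percentile of all values. The profile's own day means span less than the 0.5 asked of the candidates, so genes with as small a range could not be named. For the much flatter ER profile the same limit left no candidate as flat, and no nearest genes are given. These likenesses are over the same 9 arrays and carry no test.

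Over the whole array, 9339 of 31042 probe sets were called between days 7 and 21, 2775 between days 2 and 7 and 5891 between days 2 and 21. In the deposited scaling, 36.6%, 61.5% and 36.0% of these calls were higher at the later day. The shares were 48.0%, 41.5% and 39.6% with arrays centred on their medians, and 48.5%, 53.5% and 47.3% after quantile normalization of the deposited values. Centring moved the median change of all probe sets between days 7 and 21 to 0.13, against 0.02 as deposited, and Hspb1, Hsph1 and Hspd1 were called under both scalings. Median intensities were 37.9 to 50.4 per array, and the 3 arrays per day limit the precision of every value.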

How the data were processed

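Total RNA of 9 fibroblast pools was labelled and hybridised to single-colour Affymetrix arrays. The authors deposited 1 intensity per probe set and array, and the submitters' processing notes name RMA and affy. Filters and software versions were "not given in the sources used here". These values are linear, so log2 was taken. RMA compresses changes of dim probe sets.

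The 57 AFFX control probe sets were set aside and 31042 were tested. In the platform annotation, 20826 of these carried 1 symbol, 436 several and 9780 none. By Entrez number, 20758 symbols were found in the RefSeq gene table and 0 had changed. A linear model (limma 3.58.1, R 4.3.3, with eBayes) fitted a mean per day over all 9 arrays, with no covariate, two-sided tests and Benjamini-Hochberg adjustment over all probe sets within a comparison. A call is an adjusted p under 0.05. Errors are limma's SEs unless stated. They rest on 1 spread between litter pools per probe set, estimated over all 3 days and drawn toward that of all probe sets. The procedure was tested on simulated data.

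The members and lists were chosen with earlier results of these data known. All members are named. From each of 5 further lists up to 4 called genes per comparison with the largest change and no overlap of arrays are named, and other names are stated to be later choices. Alternatives were 2 scalings, a filter on dim probe sets, a litter number block, another prior, the 2 days alone, an offset of 16 before log2, the mean of a gene's probe sets, and each array left out. Promoters were searched in the RefSeq table, which held 9 of the 10 listed genes.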

Additional observations from a re-analysis of the deposited data

How the results depend on the processing

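Of the changes of 8 genes in 3 comparisons under 17 alternatives, 367 kept direction and side of the threshold, 25 lost and 9 gained a call, and 7 changed sign, all of them uncalled. Those were, for day 7 against day 2, Hsph1 (-0.155 to 0.0147 leaving out arrays) and Pdia4 (-0.0684 to 0.249, and -0.0271 with median centring), and for day 21 against day 7, Hspa5 (-0.135 to 0.0015, and 0.0427 with median centring) and Dnajb1 (0.24 as the mean of its probe sets). The cause was not tested, except that the Dnajb1 probe sets differ.

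Members called between days 2 and 7 were 1, and 0 with median centring, with the mean of a gene's probe sets and with the replicate block. Members called between days 2 and 21 were 1, and 3 with another prior, the offset or the mean of probe sets, 2 with the 2 days alone and 0 with median centring. Between days 7 and 21 the 5 became 4 at both scalings. Leaving out 1 array gave 0 to 1 members for day 7 against day 2, 3 to 5 for day 21 against day 7 and 0 to 2 for day 21 against day 2.

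For day 7 against day 2, the other heat shock genes had 6 calls with another prior, 7 with the offset, 5 with quantile normalization and 1 to 4 leaving out arrays, against 3. The other ER genes had 0 with median centring, 2 with the replicate block and 0 to 4 leaving out arrays, against 4, and immediate early genes had 4 with median centring and 4 to 9 leaving out arrays, against 8. For day 21 against day 7, TRiC and prefoldin had 1 with median centring, 3 with quantile normalization and 1 to 5 leaving out arrays, against 5, and immediate early genes 8 to 13, against 14. For day 21 against day 2, TRiC and prefoldin had 7 with another prior, 8 with the offset, 1 with the replicate block, 0 with the 2 days alone, median centring or quantile normalization and 0 to 2 leaving out arrays, against 2. Other heat shock genes had 6 to 12, against 10, and unfolded protein response genes 3 to 7, against 7. Probe sets called between days 2 and 7 were 1523 to 2969 leaving out arrays, against 2775. They were 1523 without day 2 replicate 2, 1663 without day 2 replicate 3, 1697 without day 7 replicate 1 and 1726 without day 7 replicate 2. An omitted array also leaves fewer samples.

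Litter numbers recur on all days, and the samples were not taken as paired. Of 9 same-numbered pairs, 2 had deviations from the day means that correlated above 0.1 (-0.237 to 0.405). Both were pairs of days 2 and 7. There the same-numbered pairs had 0.405, 0.0766 and 0.223, and the differently numbered pairs -0.285 to 0.0591. Whether an equal number means the same litter on different days is not known. The replicate block changed the call of Dnajb1 between days 2 and 7 (adjusted p = 0.0606) and no other member call. Depth has no meaning for arrays, and 3 per day limit what small changes can show.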
